A study of Mus musculus with 6 samples.

Results

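The 52 genes described here are the Wnt ligands, the Frizzled receptors, the secreted modulators of Wnt signalling and its intracellular and membrane-bound targets and feedback genes. They were chosen by name, and each was read from a probe set that the platform annotation assigns to that symbol alone, the brightest one where there were several. In all, 51 of the 52 were measured in this way among 19938 genes, and Tcf7 was not analysed here. They comprise 19 ligands, 10 Frizzled receptors, 12 secreted modulators and 10 targets and feedback genes. RNA came from mandibular arches, from which the lower jaw grows, dissected from C57BL/6 mouse embryos at embryonic day 9.5 (E9.5). Tbx1-/- embryos (3 arrays), which lack the T-box transcription factor Tbx1, were compared with Tbx1+/+ embryos (3 arrays). The design text says that arches of 3 embryos per genotype were pooled, and it does not say whether each array had a pool of its own. Values are log2 expression levels from Affymetrix Mouse Gene ST 1.0 arrays, so a difference of 1 is a 2-fold difference.

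Wnt proteins are secreted, lipid-carrying ligands that bind Frizzled receptors together with the co-receptors Lrp5 and Lrp6. In the canonical branch this stabilises beta-catenin, which joins TCF/LEF factors in the nucleus and turns on target genes, several of which (Axin2, Nkd1, Nkd2, Notum, Rnf43, Znrf3) restrain the pathway in turn. Other branches act through receptors such as Ror2 or through planar cell polarity proteins. In the developing face, Wnt ligands of the surface ectoderm signal to the neural crest mesenchyme beneath it, and beta-catenin in that ectoderm is needed for the jaw to grow out.

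The promoters of Dkk1, Sp5 and Nkd2 are shown first, because these members lead their classes or carry the letters that TCF/LEF factors recognise. RefSeq promoter windows of build GRCm38.p6, each running from 250 bases before to 50 bases after a gene's start, were given for 36 of the 51 measured members, in 43 windows. Capitals mark a TCF/LEF motif, CTTTGAA or CTTTGAT, searched on both strands; each sequence reads 5′ to 3′ along its gene.
Dkk1, chr19:30549447-30549746, - strand: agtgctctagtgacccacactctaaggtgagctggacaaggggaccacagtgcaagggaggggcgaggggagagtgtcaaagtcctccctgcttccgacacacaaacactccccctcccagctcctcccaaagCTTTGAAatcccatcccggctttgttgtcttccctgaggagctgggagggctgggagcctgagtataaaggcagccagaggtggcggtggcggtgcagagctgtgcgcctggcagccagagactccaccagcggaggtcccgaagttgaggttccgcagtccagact
Sp5, chr2:70474673-70474972, + strand: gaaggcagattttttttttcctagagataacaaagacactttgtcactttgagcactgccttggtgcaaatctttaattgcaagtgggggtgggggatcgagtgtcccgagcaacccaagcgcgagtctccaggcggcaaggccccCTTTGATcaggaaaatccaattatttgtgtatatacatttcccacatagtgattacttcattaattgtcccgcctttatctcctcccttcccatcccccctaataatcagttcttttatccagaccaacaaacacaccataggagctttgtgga
Nkd2, chr13:73847582-73847881, - strand: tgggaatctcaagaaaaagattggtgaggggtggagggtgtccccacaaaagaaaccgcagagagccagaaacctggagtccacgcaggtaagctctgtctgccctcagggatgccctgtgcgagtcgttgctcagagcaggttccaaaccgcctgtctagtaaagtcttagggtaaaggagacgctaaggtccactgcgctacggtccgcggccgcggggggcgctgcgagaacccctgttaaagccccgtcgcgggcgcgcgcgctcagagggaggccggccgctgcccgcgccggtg
The motif begins at position -117 from the start of Dkk1 and at -104 from that of Sp5, and the Nkd2 window has none. It was found in 4 of the 43 windows, the others belonging to Wnt5b and Wnt11, and in 8.65% of all 32851 windows of this length. The T-box half-site GGTGTGA, searched on both strands, was in 0 of the 43 windows and in 3.98% of all windows. These are matches of letters in a short window and no evidence on binding.

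The check of the labels was Tbx1 itself, whose log2 level was 9.48, 9.39 and 9.63 on the Tbx1-/- arrays and 11.64, 11.36 and 11.31 on the Tbx1+/+ arrays (log2 change -1.94, limma adjusted p = 0.000684). A mean over 3 Y-linked genes was 9.58, 9.28 and 5.73 in Tbx1-/- and 8.57, 9.07 and 9.85 in Tbx1+/+, so the Tbx1-/- arrays came from more than 1 pool. Tbx1-/- replicate 3 was thus far below the other arrays in Y-linked level, and no fit took embryo sex into account. No label says that the arrays stand for separate litters, and the p-values therefore rest on a spread that may be partly technical. Markers of the arch's neural crest mesenchyme were bright, 11 of 12 lying above the median of all genes. Their mean log2 level ranged from 11.19 to 11.31 in Tbx1-/- and from 10.94 to 11.16 in Tbx1+/+, with 9 of 12 genes above 0 in the comparison. Oral and surface ectoderm markers ranged from 10.18 to 10.22 in Tbx1-/- and from 10.02 to 10.06 in Tbx1+/+ (7 of 8 above 0), and cardiac muscle markers from 8.82 to 9.41 in Tbx1-/- and from 8.38 to 8.70 in Tbx1+/+ (6 of 7 above 0). Markers of the core mesoderm, Tbx1 among them, ranged from 8.72 to 8.85 in Tbx1-/- and from 9.36 to 9.52 in Tbx1+/+ (1 of 8 above 0), and primitive erythroid markers from 9.93 to 9.95 in Tbx1-/- and from 10.18 to 10.27 in Tbx1+/+ (0 of 7 above 0). Migratory crest and glial markers ranged from 8.63 to 8.82 in Tbx1-/- and from 8.90 to 9.53 in Tbx1+/+ (1 of 4 above 0). The upper end was Tbx1+/+ replicate 1 alone, with replicates 2 and 3 at 8.90 and 8.99. Of the 4 genes in this list, Ngfr was lower at a limma adjusted p of 0.0142 (log2 change -0.70). Sox10 was lower at an unadjusted limma p under 0.05 only (log2 change -0.85, limma adjusted p = 0.435), while Erbb3 had a log2 change of 0.0005. Second arch and hindbrain markers ranged from 7.83 to 7.95 in Tbx1-/- and from 7.53 to 7.58 in Tbx1+/+ (5 of 6 above 0). That difference came mostly from Hoxa2 and Hoxb2 (log2 changes 1.11 and 0.63), and the arrays of the other markers in this list overlapped. The ranges of the genotypes overlapped for pharyngeal endoderm, endothelium and macrophages and lay apart for neural tube and neurons (7.23 to 7.33 in Tbx1-/- and 7.34 to 7.56 in Tbx1+/+). The part of these cell types in the results below was not tested, and in bulk tissue fewer cells of a type and less RNA per cell cannot be told apart.

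No Wnt member passed limma's adjusted p of 0.05 over all genes, against 0.160% of all genes (32 of 19938, with 0.0853% higher and 0.0752% lower). Below an unadjusted limma p of 0.05 lay 14 members, 10 of them higher and 4 lower in Tbx1-/-, or 27.5% of 51, against 9.44% of all genes (5.50% higher and 3.94% lower). The 10 were Dkk1, Wnt2, Fzd4, Rnf43, Dkk2, Wnt2b, Lgr6, Lef1, Fzd1 and Wnt3, and the 4 were Nkd2, Sp5, Sfrp2 and Wnt10a. All of these differences were small, the largest being that of Dkk1, 1.30-fold. The arrays of the genotypes did not overlap in 14 members, 10 higher and 4 lower, or 27.5%, against 15.4% of all genes (8.36% higher and 7.06% lower). Fzd10, Sfrp1, Znrf3 and Lgr5 were among these 14 without reaching the unadjusted threshold, and Wnt10a, Fzd4, Sp5 and Lgr6 reached it with overlapping arrays. The median of the absolute log2 change was 0.10 over the members and 0.05 over all genes, while the signed median was 0.02 over the members and -0.0061 over all genes. The 95% confidence interval lay within 1.5-fold in either direction for 50 of the 51 members (all but Sfrp1) and within 1.25-fold for 38. These intervals were not adjusted for the number of members. They rest on the same spread between arrays, which may be partly technical, and so may be too narrow.

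**Figure D1:**
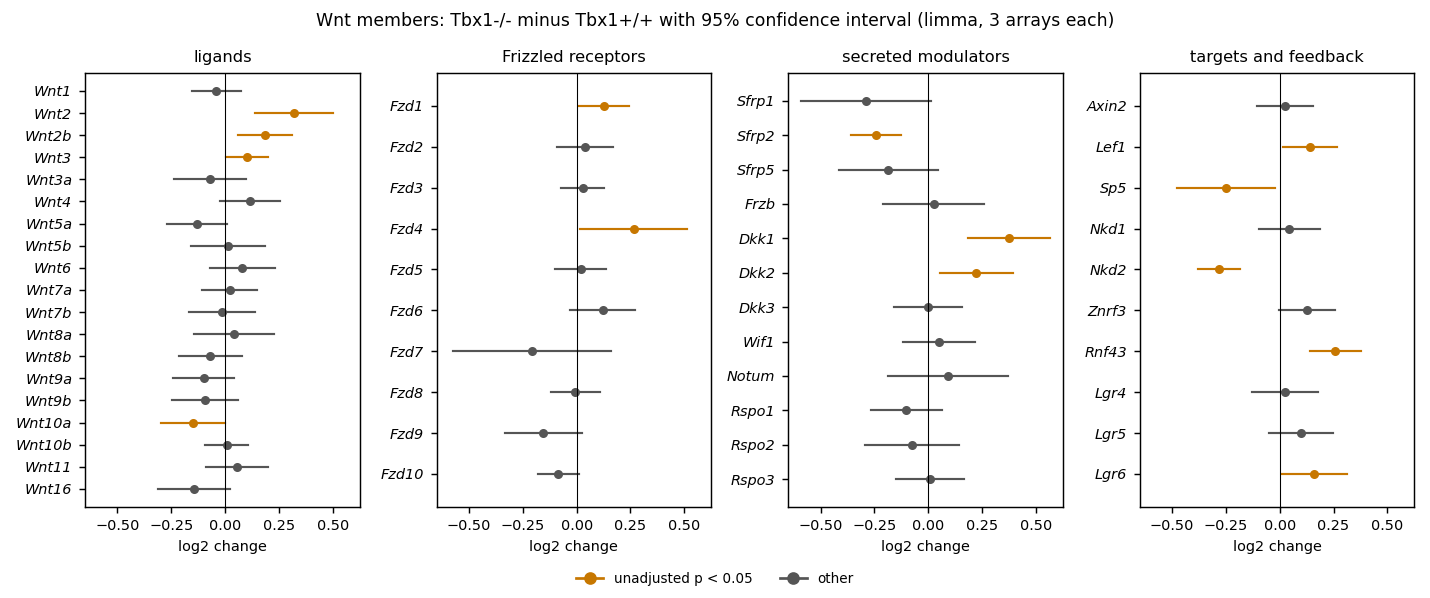
Log2 change (Tbx1-/- minus Tbx1+/+, x axis) of the 51 measured members in 4 classes, with limma's 95% confidence interval as a line. The 14 members in orange had an unadjusted p under 0.05, and the changes of all 51 lay between -0.29 and 0.38.

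The counts at the unadjusted threshold moved with single arrays and with the scaling, and those of all 19938 genes (1097 higher and 786 lower) moved too. The 10 higher members became 4 without Tbx1+/+ replicate 2 (805 of all genes) and 5 without Tbx1-/- replicate 1 (912 of all genes). The 4 lower members became 2 without Tbx1-/- replicate 1 (603 of all genes), 2 without Tbx1+/+ replicate 1 (861 of all genes) and 8 without Tbx1+/+ replicate 3 (1332 of all genes). Centring each array on its median gave 5 higher and 9 lower members, beside 693 higher and 1386 lower among all genes. Another quantile normalisation gave 7 higher and 8 lower members, beside 899 higher and 1419 lower among all genes. The balance thus turned the same way over all genes as over the members, and the all-gene median of -0.0061 became -0.0326 after centring and -0.0209 after quantile normalisation. With limma's array weights there were 10 higher and 11 lower members, beside 2042 higher and 1777 lower among all genes (19.2%). In that setting 5 members passed the adjusted threshold (Dkk1, Dkk2, Nkd2, Rnf43 and Sfrp2), as did 334 of all genes.

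Among the 19 ligands 10 lay above 0 and 9 below, with a median log2 change of 0.0069, which was -0.0197 after median centring and -0.0263 after quantile normalisation, settings that lowered the median of all genes as well. Of the 3 that were higher at the unadjusted threshold, Wnt2, a ligand of mesodermal tissues such as those of the lung, had the largest difference. Wnt2 (probe set 10543253, Entrez gene 22413) had log2 levels of 7.31, 7.52 and 7.61 in Tbx1-/- and 7.20, 7.15 and 7.12 in Tbx1+/+. Every Tbx1-/- array was above every Tbx1+/+ array, and the log2 change was 0.32 (SE 0.08, limma adjusted p = 0.221), or 1.25-fold. Its close relative Wnt2b had 7.63, 7.69 and 7.74 in Tbx1-/- and 7.58, 7.44 and 7.48 in Tbx1+/+. The genotypes did not overlap, but Tbx1+/+ replicate 1 came near the lowest Tbx1-/- array (log2 change 0.19, SE 0.05, limma adjusted p = 0.327). Wnt3, a canonical ligand whose human counterpart is needed for limb formation, had 7.99, 7.99 and 7.93 in Tbx1-/- and 7.86, 7.86 and 7.89 in Tbx1+/+. This difference of 0.10 was narrow but free of overlap (SE 0.04, limma adjusted p = 0.496). The probe sets of these 3 ligands were dimmer than the median gene, and dim probe sets tend to understate a change.

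Wnt10a, an ectodermal ligand whose human counterpart is needed for tooth formation, was the 1 ligand lower at the unadjusted threshold. Its log2 levels were 8.17, 8.21 and 8.01 in Tbx1-/- and 8.32, 8.30 and 8.21 in Tbx1+/+. The highest Tbx1-/- array touched the lowest Tbx1+/+ array (log2 change -0.15, SE 0.06, limma adjusted p = 0.518), and without Tbx1-/- replicate 3 the change was -0.09. Wnt5a, which drives outgrowth of the arches largely outside the beta-catenin branch, was read from the brightest ligand probe set (brightness depends on the probes and does not rank the genes), with 11.67, 11.63 and 11.82 in Tbx1-/- and 11.87, 11.86 and 11.79 in Tbx1+/+. Tbx1-/- replicate 3 lay within the Tbx1+/+ range, and the change of -0.13 (95% confidence interval -0.27 to 0.01) did not pass. Wnt4, next in brightness, had 10.18, 10.03 and 9.99 in Tbx1-/- and 9.90, 9.99 and 9.95 in Tbx1+/+. The change was 0.12 (SE 0.06, limma adjusted p = 0.618), and a second, dimmer probe set of Wnt4 gave 0.12 as well, its arrays overlapping too. Without Tbx1-/- replicate 1 the change of Wnt4 was 0.06.

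The other 13 ligands had changes between -0.14 (Wnt16) and 0.08 (Wnt6), and in each the arrays overlapped between genotypes. Wnt6, an ectodermal ligand, averaged 9.37 ± 0.12 in Tbx1-/- and 9.29 ± 0.02 in Tbx1+/+ (SD, n = 3 each). Wnt9b, the ligand of facial ectoderm whose loss in mice gives cleft lip, averaged 8.58 ± 0.09 in Tbx1-/- and 8.68 ± 0.09 in Tbx1+/+. For Wnt9b the log2 change was -0.09 with a 95% confidence interval of -0.25 to 0.06. Its relative Wnt9a had a change of -0.10, Wnt3a of -0.07, Wnt7b of -0.0139, Wnt5b of 0.0128, Wnt11 of 0.05, Wnt8a of 0.04 and Wnt10b of 0.0069. Wnt1, which with Wnt3a marks the dorsal neural tube, had a change of -0.04, Wnt7a of 0.02 and Wnt8b of -0.07. These 3, Wnt1, Wnt7a and Wnt8b, were the only members with probe sets below the first quartile of mean level over all genes, and no detection call was used here.

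Several ligand genes are chromosomal neighbours, and their values are given side by side. Wnt6 and Wnt10a, which are adjacent, had log2 changes of 0.08 and -0.15, and the adjacent Wnt3 and Wnt9b had 0.10 and -0.09. In the adjacent pair of Wnt3a and Wnt9a both were slightly lower (-0.07 and -0.10), and Wnt10b and Wnt1 had 0.0069 and -0.04. None of these differences between neighbours was tested.

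**Figure D2:**
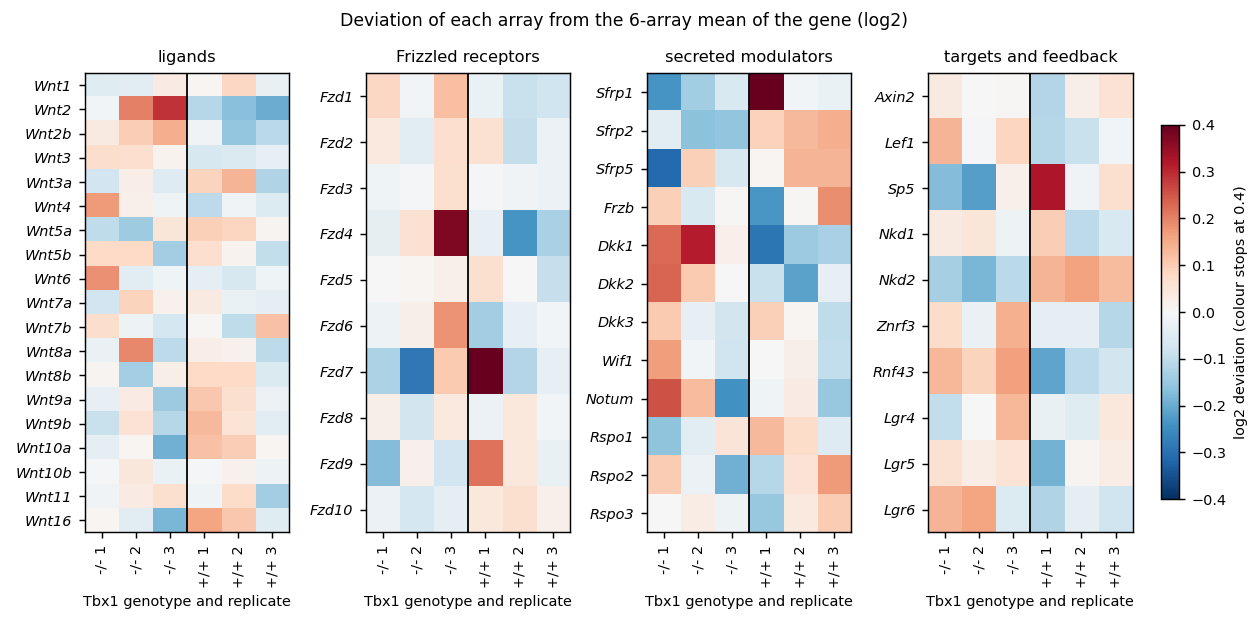
Each cell is the log2 deviation of an array from the 6-array mean of a gene, with genes in rows by class and arrays in columns, Tbx1-/- left of the black line and Tbx1+/+ right of it; the colour scale stops at 0.4. Nkd2, Rnf43, Sfrp2 and Dkk1 split at the line, whereas Sfrp1, Fzd7 and Sp5 stood out most on Tbx1+/+ replicate 1.

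The Frizzled receptors, membrane proteins with a cysteine-rich domain that holds the Wnt, had a median log2 change of 0.02 (0.0001 after quantile normalisation and -0.0026 after centring), with 6 of 10 above 0. Fzd4, also the receptor for Norrin in vessel development, had log2 levels of 9.70, 9.80 and 10.11 in Tbx1-/- and 9.70, 9.499 and 9.61 in Tbx1+/+. Tbx1-/- replicate 3 was the high array, and the change of 0.27 (SE 0.11, limma adjusted p = 0.482) became 0.14 without it. Fzd1 had 10.55, 10.45 and 10.58 in Tbx1-/- and 10.44, 10.38 and 10.38 in Tbx1+/+. Its arrays did not overlap (log2 change 0.13, SE 0.05, limma adjusted p = 0.464).

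Fzd2 and Fzd7 had the brightest probe sets of the receptors. Fzd2 had 12.19, 12.11 and 12.22 in Tbx1-/- and 12.21, 12.06 and 12.13 in Tbx1+/+, with a change of 0.04 (95% confidence interval -0.09 to 0.17). Fzd7 had 11.28, 11.12 and 11.51 in Tbx1-/- and 11.87, 11.29 and 11.38 in Tbx1+/+. Its change of -0.21 rested on Tbx1+/+ replicate 1, without which it was -0.03. The remaining receptors lay between -0.15 (Fzd9) and 0.12 (Fzd6). Fzd10 had the narrowest interval among them, and its arrays did not overlap, with 8.96 ± 0.02 in Tbx1-/- and 9.05 ± 0.02 in Tbx1+/+ (SD, n = 3 each, log2 change -0.09). Fzd3, a receptor of planar polarity and axon growth, had a change of 0.03, Fzd5 of 0.02 and Fzd8 of -0.0055.

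The secreted modulators split evenly, with 6 of 12 above 0 and a median log2 change of 0.0040 (-0.0226 after centring and -0.0232 after quantile normalisation). Within them, 2 Dickkopf genes were higher and Sfrp2 lower at the unadjusted threshold. Dickkopf proteins bind Lrp5 and Lrp6 and keep them from the Wnt-Frizzled complex. Dkk1 (probe set 10467006, Entrez gene 13380), without which mouse embryos lack the anterior head, had log2 levels of 11.43, 11.52 and 11.23 in Tbx1-/- and 10.92, 11.06 and 11.08 in Tbx1+/+. Every Tbx1-/- array was above every Tbx1+/+ array, with a log2 change of 0.38 (SE 0.08, limma adjusted p = 0.178), or 1.30-fold. It stayed between 0.31 and 0.46 with any 1 array left out. Dkk2, which can also activate the pathway, had 8.004, 7.88 and 7.77 in Tbx1-/- and 7.68, 7.56 and 7.74 in Tbx1+/+. The gap between the genotypes was small beside the spread within each (log2 change 0.22, SE 0.07, limma adjusted p = 0.383). Dkk3, which is not known as a regular Lrp antagonist, had a change of -0.0010.

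Secreted Frizzled-related proteins carry a Frizzled-like domain and bind Wnts outside the cell. Sfrp2 (probe set 10492798, Entrez gene 20319) had log2 levels of 11.04, 10.92 and 10.92 in Tbx1-/- and 11.17, 11.21 and 11.23 in Tbx1+/+. All Tbx1-/- arrays were below all Tbx1+/+ arrays, and the change was -0.24 (SE 0.05, limma adjusted p = 0.149), or 1.18-fold. Sfrp1 had 11.68, 11.78 and 11.85 in Tbx1-/- and 12.39, 11.91 and 11.89 in Tbx1+/+. Its arrays did not overlap, but the change of -0.29 (SE 0.13, limma adjusted p = 0.544) became -0.13 without Tbx1+/+ replicate 1. Sfrp5 had a change of -0.19 with wide scatter (SE 0.10), and Frzb, a further member of this family, one of 0.03 (SE 0.10).

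Rspo1, Rspo2 and Rspo3 encode R-spondins, which raise Wnt signalling by removing the ligases Rnf43 and Znrf3 from the membrane. Rspo2, whose loss in mice disturbs the lower jaw, averaged 8.99 ± 0.15 in Tbx1-/- and 9.06 ± 0.14 in Tbx1+/+ (SD, n = 3 each, log2 change -0.08). Rspo1 had a change of -0.10 and Rspo3 of 0.0090, all of them with overlapping arrays. Wif1, a secreted Wnt-binding inhibitor, had a change of 0.05 and Notum, the enzyme that strips the lipid from Wnts, one of 0.09 (SE 0.12). Tbx1-/- replicate 1 was the highest array for both.

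**Figure D3:**
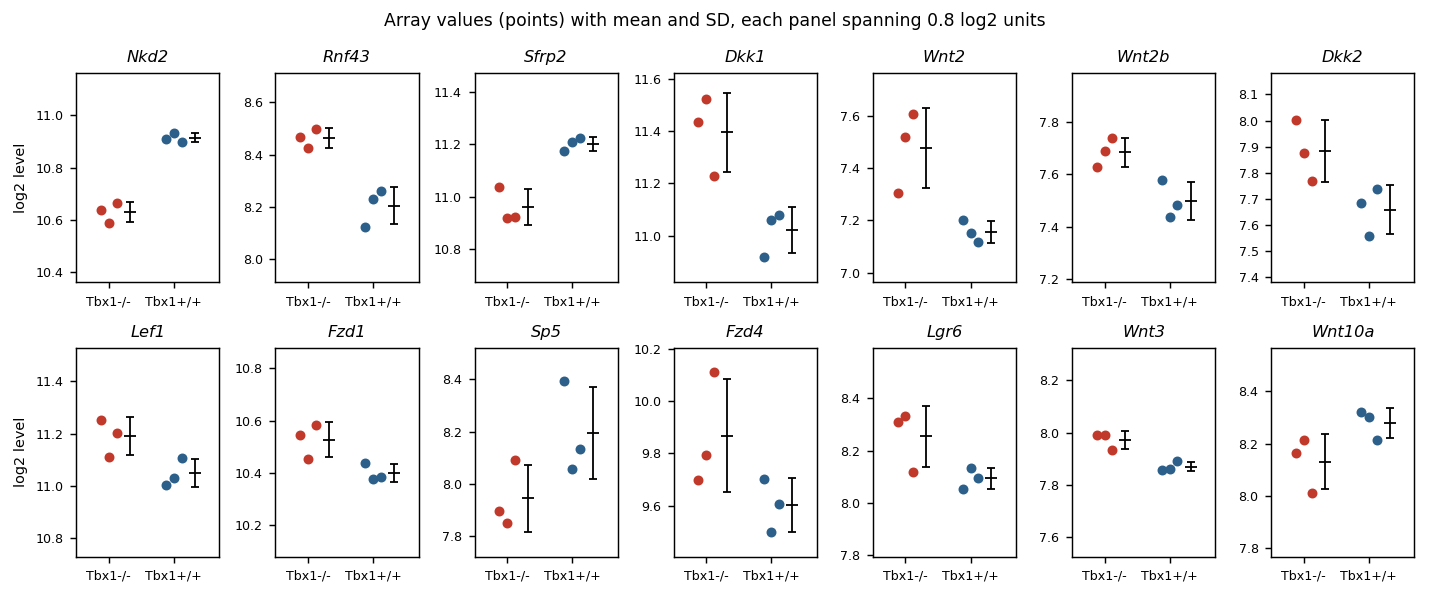
Log2 level of each array for the 14 members with an unadjusted p under 0.05, ordered by that p, Tbx1-/- (red) left and Tbx1+/+ (blue) right, with the mean and SD of 3 arrays as a black bar; each panel spans 0.8 log2 units. The genotypes are apart in 10 panels and overlap in those of Sp5, Fzd4, Lgr6 and Wnt10a.

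In the targets and feedback class 8 of 10 members lay above 0, with a median log2 change of 0.07, and 3 were higher and 2 lower at the unadjusted threshold. The median was 0.04 both after centring and after quantile normalisation. The member with the lowest p of all was one that lay below 0. Nkd2 (probe set 10410547, Entrez gene 72293), a Dishevelled-binding protein that restrains Wnt signalling, had log2 levels of 10.64, 10.59 and 10.66 in Tbx1-/- and 10.91, 10.93 and 10.90 in Tbx1+/+. The genotypes were separated by more than the spread of either, with a log2 change of -0.28 (SE 0.04, limma adjusted p = 0.0666), or 1.22-fold. Its value lay between -0.30 and -0.26 with any 1 array left out, and it passed the adjusted threshold in 3 of 15 alternatives, which gave adjusted p-values from 0.00872 to 0.316. Its relative Nkd1, which also binds Dishevelled, averaged 10.16 ± 0.04 in Tbx1-/- and 10.12 ± 0.11 in Tbx1+/+ (SD, n = 3 each), a change of 0.04. The difference between Nkd2 and Nkd1 was not tested.

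Rnf43 and Znrf3 encode transmembrane ubiquitin ligases that take Frizzled receptors off the cell surface. Rnf43 (probe set 10380116, Entrez gene 207742) had log2 levels of 8.47, 8.42 and 8.499 in Tbx1-/- and 8.12, 8.23 and 8.26 in Tbx1+/+. Every Tbx1-/- array was above every Tbx1+/+ array (log2 change 0.26, SE 0.05, limma adjusted p = 0.141), and with any 1 array left out the change lay between 0.22 and 0.29. Znrf3 averaged 10.76 ± 0.09 in Tbx1-/- and 10.64 ± 0.04 in Tbx1+/+ (SD, n = 3 each). Its arrays did not overlap either, and its change was 0.13 (SE 0.06, limma adjusted p = 0.544). The R-spondin receptors Lgr4, Lgr5 and Lgr6 had changes of 0.02, 0.10 and 0.16. Lgr6 had 8.31, 8.33 and 8.12 in Tbx1-/- and 8.06, 8.13 and 8.09 in Tbx1+/+. Tbx1-/- replicate 3 lay within the Tbx1+/+ range (SE 0.06, limma adjusted p = 0.484).

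The nuclear factor Lef1 and the zinc-finger target Sp5 lay on opposite sides of 0. Lef1, the TCF/LEF family member needed for teeth and hair, had log2 levels of 11.25, 11.11 and 11.20 in Tbx1-/- and 11.005, 11.03 and 11.11 in Tbx1+/+. The lowest Tbx1-/- array and the highest Tbx1+/+ array nearly met (log2 change 0.14, SE 0.05, limma adjusted p = 0.451). Sp5 had 7.90, 7.85 and 8.09 in Tbx1-/- and 8.39, 8.06 and 8.14 in Tbx1+/+. Its arrays overlapped, and the change of -0.25 (SE 0.10, limma adjusted p = 0.470) was -0.15 without Tbx1+/+ replicate 1. Axin2, the feedback scaffold most often read as a measure of canonical signalling, averaged 10.27 ± 0.02 in Tbx1-/- and 10.25 ± 0.09 in Tbx1+/+ (SD, n = 3 each). The 95% confidence interval of its log2 change of 0.02 ran from -0.10 to 0.15.

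**Figure D4:**
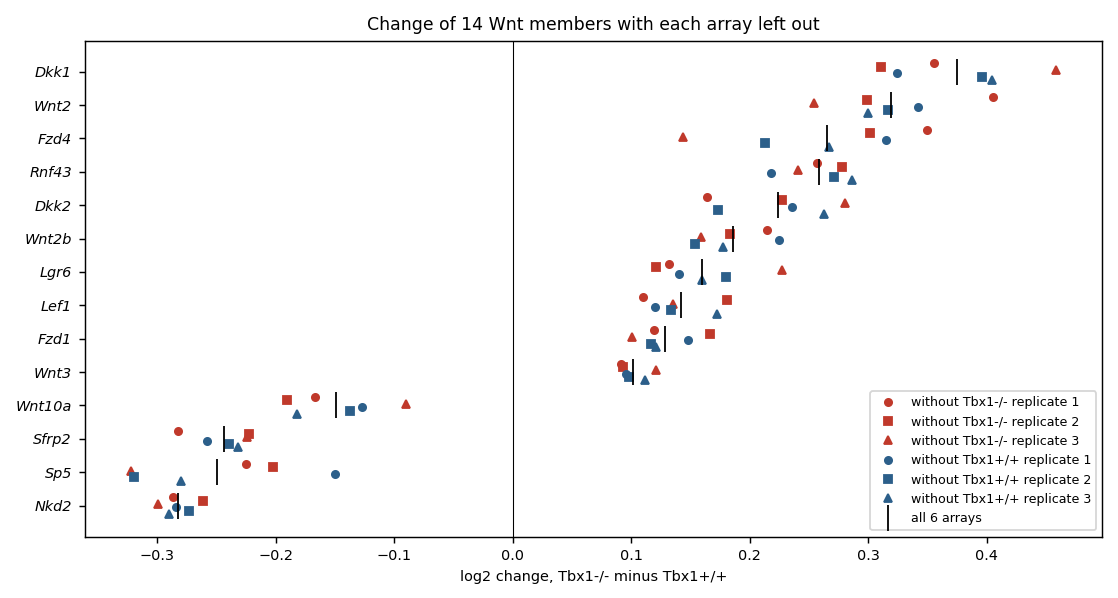
Log2 change (Tbx1-/- minus Tbx1+/+, x axis) of the 14 members with an unadjusted p under 0.05, with all 6 arrays (black bar) and with each array left out (red, a Tbx1-/- array; blue, a Tbx1+/+ array). All kept their sign in these fits, and Fzd4 and Sp5 came down to 0.14 and -0.15 without a single array. The 14 were chosen by their p on these same arrays. In the 10 without overlap, leaving out 1 array cannot reverse the sign, so the kept signs are no added support.

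A further 62 Wnt pathway genes outside these families were read alongside. None passed limma's adjusted threshold, and 8 lay below the unadjusted one, 6 higher and 2 lower, or 12.9% against 9.44% of all genes. Of the 62, 51 lay above the median level of all genes. In a fit to the genes above that median alone, 12.5% lay below the unadjusted threshold, near the 12.9%. The median log2 change of the 62 was 0.02. The count of lower genes was 0 without Tbx1+/+ replicate 1, Tbx1-/- replicate 1 or Tbx1-/- replicate 2 and 1 without Tbx1+/+ replicate 2, while that of higher genes stayed between 4 and 7. Dact1, a Dishevelled-binding regulator, had log2 levels of 10.94, 10.95 and 11.10 in Tbx1-/- and 10.76, 10.60 and 10.63 in Tbx1+/+. Its genotypes were well apart (log2 change 0.33, SE 0.07, limma adjusted p = 0.137). Wls, the carrier that brings Wnts to the cell surface, had 11.89, 11.90 and 11.91 in Tbx1-/- and 11.79, 11.70 and 11.75 in Tbx1+/+. The Tbx1-/- arrays were nearly equal and all above the others (log2 change 0.16, SE 0.04, limma adjusted p = 0.297). Porcn, the enzyme that attaches the lipid, had a change of 0.09.

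Sostdc1, a secreted antagonist of both Wnt and BMP signalling, had 11.10, 10.85 and 10.93 in Tbx1-/- and 10.47, 10.81 and 10.72 in Tbx1+/+ (log2 change 0.29, SE 0.10, limma adjusted p = 0.399). Kremen1, a membrane partner of Dkk1 that lies beside Znrf3 in the genome, had 10.73, 10.77 and 10.90 in Tbx1-/- and 10.61, 10.65 and 10.66 in Tbx1+/+ (log2 change 0.16, limma adjusted p = 0.409). Both were free of overlap, though Tbx1+/+ replicate 1 was the lowest array for each. Gpc4, a heparan sulphate proteoglycan of the cell surface, had 10.42, 10.23 and 10.57 in Tbx1-/- and 11.05, 10.51 and 10.71 in Tbx1+/+. Its change of -0.35 (SE 0.14, limma adjusted p = 0.475) was -0.21 without Tbx1+/+ replicate 1. The corepressor Tle2 and the beta-catenin cofactor Pygo1 had changes of 0.13 and 0.11, and the planar polarity gene Prickle2 one of -0.15.

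Beta-catenin (Ctnnb1) averaged 13.28 ± 0.02 in Tbx1-/- and 13.28 ± 0.01 in Tbx1+/+ (SD, n = 3 each), with a log2 change of -0.0007 and a 95% confidence interval of -0.09 to 0.09. Lrp5 and Lrp6 had changes of 0.06 and 0.05, and the Wnt5a receptors Ror1 and Ror2 of -0.10 and 0.01. The 18 genes of cytoplasmic transduction and the destruction complex, Dact1 among them, had a median of 0.03 with 13 above 0, and their mean log2 level ranged from 11.17 to 11.21 in Tbx1-/- and from 11.14 to 11.15 in Tbx1+/+. The 11 nuclear factors had a median of 0.07 with 8 above 0, and their mean ranged from 10.73 to 10.78 in Tbx1-/- and from 10.69 to 10.72 in Tbx1+/+. The arrays did not overlap for 5 of these 11 (45.5%, against 15.4% of all genes), namely Tcf7l2, Bcl9, Pygo1 and Tle2, which were higher, and Tle4, which was lower. Only Pygo1 and Tle2 among them reached the unadjusted threshold. Over all 62 further pathway genes the arrays did not overlap in 12, or 19.4%, which is near the share of all genes. The 11 planar polarity genes had a median of 0.01, and none of them was free of overlap.

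**Figure D5:**
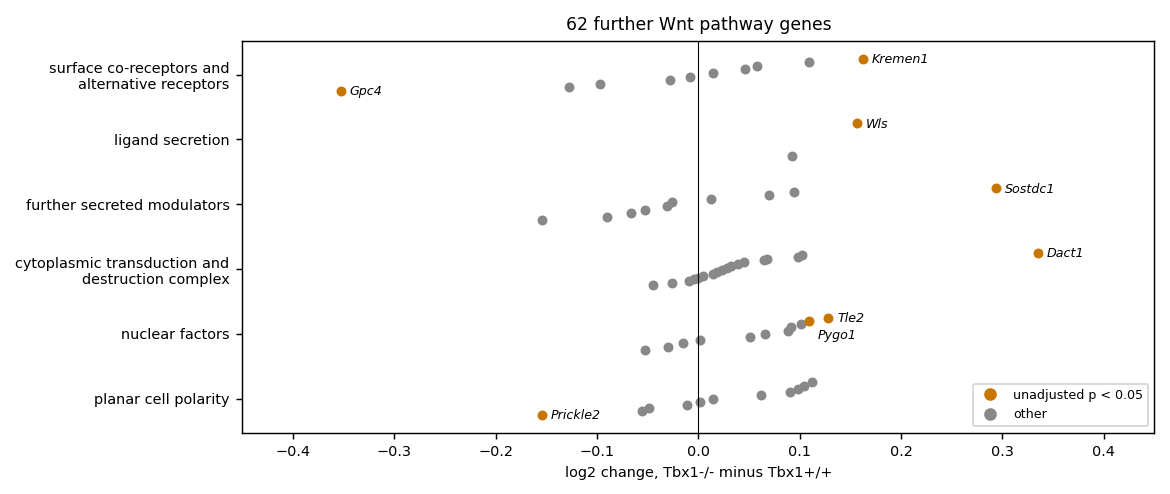
Log2 change (Tbx1-/- minus Tbx1+/+, x axis) of 62 further Wnt pathway genes in 6 groups, 1 point per gene. The 8 orange points had an unadjusted p under 0.05, and the changes ran from -0.35 to 0.33.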

How the data were processed

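The submitters' processing notes name RMA, a method that corrects background, normalises arrays and summarises probes, and Affymetrix Expression Console 1.1. The authors deposited log2 values, 1 per probe set. Other settings and the build were not given in the sources used here. From the values themselves the scale is log2. Array medians lay between 8.02 and 8.04 in Tbx1-/- and between 7.98 and 8.01 in Tbx1+/+, a small offset that median centring removes. RMA hides a shift shared by most genes. Per the labels' protocols, each labelling reaction started with 300 ng of RNA. The array number limits precision: the median SE of a change was 0.06. Of 35556 probe sets, 21789 had 1 symbol, 1621 several and 12146 none. The brightest probe set stood for each gene. RefSeq tables gave symbols and promoters.

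All 19938 genes were tested in 1 model with limma 3.58.1 (R 4.3.3; moderated, two-sided, Benjamini-Hochberg over all genes, threshold 0.05). On simulated data of that size for Tbx1-/- against Tbx1+/+ the share found was 25 of 50 at 1.25-fold, 44 of 50 at 1.5-fold and 50 of 50 at 2-fold. The simulation changed 50 genes at each of these folds and at 4-fold, and 174 genes passed, against 32 in the real data. With more genes passing, the Benjamini-Hochberg cutoff on the unadjusted p is looser. The simulated noise was normal and independent, with variances drawn from the distribution that limma fitted. For both reasons these shares may overstate the power here, at 1.25-fold above all. Of the marker genes changed more than 2-fold, Tbx1 (3.83-fold) and Lhx2 (2.96-fold) passed. Actc1 (2.63-fold, limma adjusted p = 0.163) and Hoxa2 (2.15-fold, limma adjusted p = 0.126) did not. Members, lists and tests were chosen with earlier results of these data known. Arrays are shown singly for members at an unadjusted p under 0.05, non-overlapping members changed by at least 0.2 and the 2 brightest of each class; of the other pathway genes, those at an unadjusted p under 0.05 (at most 8) are named. Alternatives were a replicate block, leaving out each array, 2 scalings, 2 filters, another variance model, weighting of arrays, averaging over the probe sets of a gene and adjustment over every probe set.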

Additional observations from a re-analysis of the deposited data

How the results depend on the processing

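The 27 named Wnt pathway genes and Tbx1 kept the sign of their change in every alternative run. Most of the 27 were named for an unadjusted limma p under 0.05 on these same arrays, so the kept signs are no added support. No member passed the adjusted threshold with any 1 array left out (0 to 0). The number of members past that threshold was 1 (Nkd2) when genes below the median level were left out, which tests fewer genes, 1 (Nkd2) with an intensity trend and robust estimation, and 5 with array weights, which gave Tbx1+/+ replicate 2 a weight of 3.003 and Tbx1+/+ replicate 3 one of 0.41. Of the other pathway genes, 1 (Dact1) passed with the trend, 2 (Dact1 and Wls) with array weights, and 0 to 0 with an array left out.

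Members higher at the unadjusted threshold numbered 5 after median centring, 5 of the 25 tested above the median level and 4 to 9 with an array left out. Members lower numbered 8 after quantile normalisation, 9 after centring, 11 with array weights, 2 in the fit to every probe set and 2 to 8 with an array left out. Over all genes, 786 were lower, and 1419, 1386, 1777 and 676 in the first 4 of these settings. Of all genes 1097 were higher, with 693 after centring and 811 of the 9969 above the median level. With an array left out, 805 to 1388 of all genes were higher and 558 to 1332 lower. Other pathway genes higher numbered 3 after centring, 12 with array weights and 4 to 7 with an array left out, and those lower numbered 1 in the fit to every probe set and 0 to 3 with an array left out.

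The targets and feedback median of 0.07 was 0.0449 after quantile normalisation, 0.0445 after centring, 0.0339 above the median level and 0.0666 to 0.0856 with an array left out. The secreted modulators' median was -0.0887 above the median level and -0.0633 to 0.0254 with an array left out, that of the ligands -0.0238 to 0.0178 and that of the Frizzled receptors 0.0056 to 0.0449. The cause of these differences between settings was not tested.

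The number of all genes past the threshold, 32, was 46 after centring, 96 with the trend, 334 with array weights, 4 over every probe set and 3 to 20 with an array left out. With the replicate number as a block it was 6, with 0 members past the threshold and 10 higher and 6 lower at the unadjusted one. The same-numbered arrays' deviations correlated at -0.05, 0.26 and 0.15 over genes, and those of differently numbered arrays at -0.37 to 0.25. With deviations taken from means of only 3 arrays, these values cannot decide whether the numbers pair the arrays.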
